A study of Punica granatum with 8 samples.

Results

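A set of 72 genes was low in 4 of 8 pomegranate (Punica granatum) hairy root libraries and high in the other 4, in a split that ran across all 3 constructs of the study. The members were chosen from the deposited normalized counts. A gene was taken when its mean over the 8 libraries was at least 20 and when the lowest of EV replicates 1 and 2, PgMyb308-like replicate 3 and line 1712 replicate 1 (here the high libraries) was at least 1.5 times the highest of EV replicate 3, PgMyb308-like replicates 1 and 2 and line 1712 replicate 2 (the low libraries). Of the 18831 genes in the table, 12628 reached the mean, and the 72 members are 0.570% of these. The opposite rule, with the low libraries above the high ones, took 67 genes, or 0.531%. The number of members rests on all 8 libraries and was 250 with EV replicate 3 left out of the rule. Since the measured values chose both the members and the split, the difference between high and low libraries is described here without a test.

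Hairy roots are roots that grow from plant tissue after infection with Agrobacterium rhizogenes, which transfers a piece of its DNA into the plant genome. The transferred genes change how the cells respond to auxin and let the roots grow and branch without added hormone. Each hairy root arises from its own transformation event, and lines of 1 construct can therefore differ in the site and number of insertions. PgMyb308-like is an R2R3 Myb transcription factor of the subgroup whose members are known in other plants mostly as regulators of phenylpropanoid metabolism, the source of lignins and flavonoids.

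All samples were young hairy roots of the cultivar PG116-17, grown for 3 months in pots in a greenhouse, with all root cells pooled in an extract. The groups were 3 empty vector control lines (EV), 3 lines overexpressing PgMyb308-like from the constitutive promoter of the cauliflower mosaic virus, and 2 libraries labelled line 1712, whose labels give overexpression of PgMyb308 under another sequence record. Line 1712 is not described in the study's methods, and that its construct has the same promoter is not stated. In the methods, each root that showed green fluorescent protein, 1 from each seedling, served as a replicate, so that the spread among EV or PgMyb308-like libraries is a spread among lines. The PgMyb308-like lines had been picked for high expression of the introduced gene, and whether the 2 libraries of line 1712 are separate lines is not stated. Line state was not measured, and the high and low libraries are named only for the rule. The files give genes as locus identifiers without names or products, so that the roles of the members are not given, and root and other cell type markers could not be checked.

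The sums of counts per library ran from 1263321 to 3976951. They were 1854987 to 3976951 in the high libraries and 1263321 to 3008991 in the low libraries. In EV the low library (replicate 3, with 3008991 counts) was deeper than both high ones, while in the other constructs each low library was shallower than the high one. The part of depth in the split was not tested. The first principal component of log2 CPM over all genes tested held 35.3% of the variance. On it the low libraries lay at 105.2, 46.7, 31.6 and -6.40 and the high libraries at -33.1 to -61.9. EV replicate 3, at -6.40, lay nearer to the nearest high library than to the next low one. The members enter this axis, which comes from the same values that chose the split, so its order is no separate evidence for the split.

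The 72 members together took 1.12% to 1.53% of the counts of each high library and 0.253% to 0.485% of each low library. Within EV they fell from 1.33% and 1.12% in replicates 1 and 2 to 0.485% in replicate 3. Within PgMyb308-like the share was 1.19% in replicate 3 and 0.253% and 0.360% in replicates 1 and 2, and within line 1712 it was 1.53% and 0.447%. In RNA from whole roots, fewer cells that express a gene and less RNA of it per cell cannot be told apart. The median member had a mean of 4.09 times as much in the high as in the low libraries (quartiles 3.03 and 5.56). For 69 members this ratio of means was at least 2, for 38 at least 4 and for 11 at least 8.

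**Figure D1:**
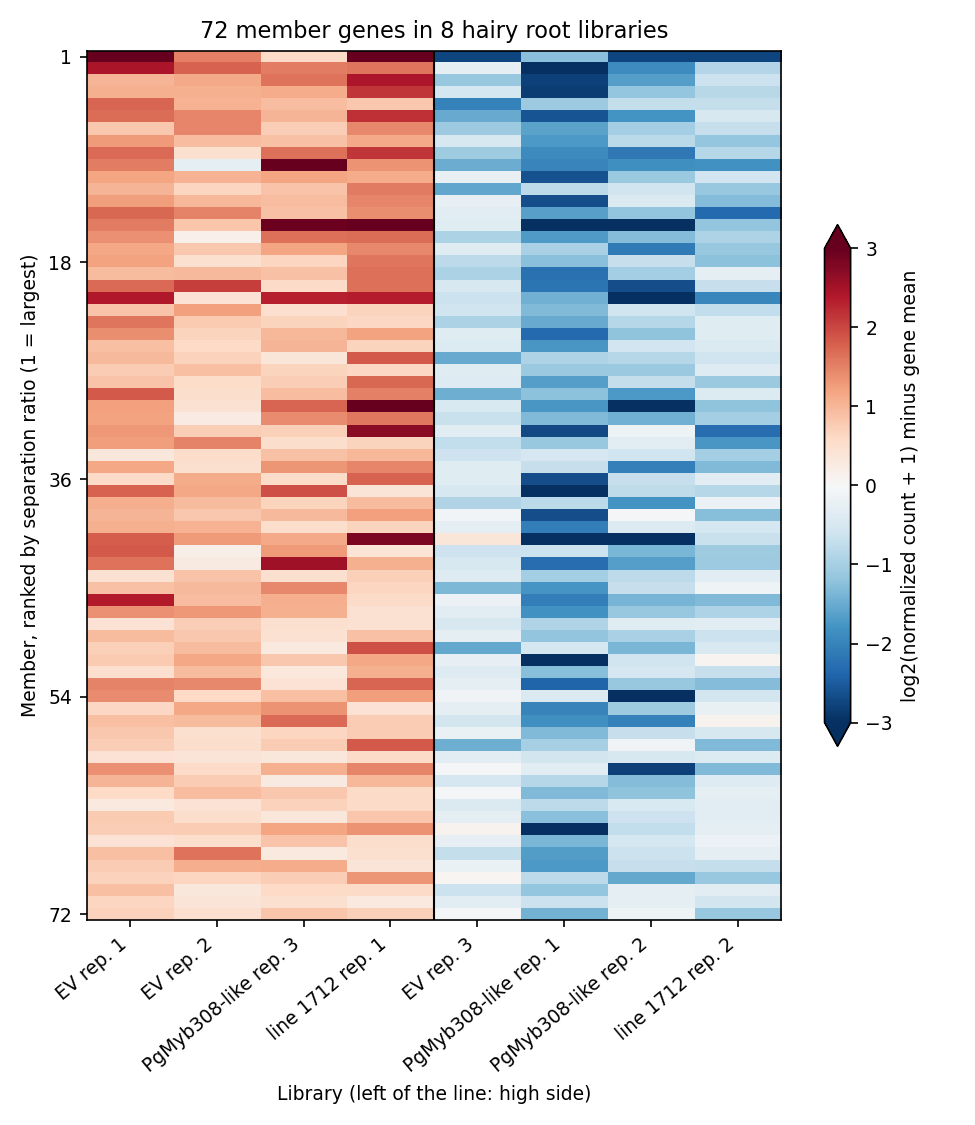
Each row is 1 of the 72 members, ranked by separation ratio (lowest high library over highest low library), and each column a library; colour gives log2(normalized count + 1) minus the gene's mean over the 8 libraries. The 4 columns left of the line (EV replicates 1 and 2, PgMyb308-like replicate 3, line 1712 replicate 1) are the high libraries, and PgMyb308-like replicate 1 holds the lowest values of 45 members on the low side.

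The separation ratio, the lowest high library over the highest low one, had a median of 1.82 and was at least 2 in 26 members and at least 3 in 4. Just inside the threshold stood LOC116197517 at 1.501, LOC116195316 at 1.502 and LOC116210150 at 1.509. Just outside stood LOC116212917 at 1.491, LOC116211796 at 1.489 and LOC116209489 at 1.487, so that the threshold does not fall in a gap. With counting error alone, the 95% exact binomial interval of the separation ratio lay above 1 in 57 members and above 1.5 in 21. The members were chosen by this same ratio in these same libraries, so these numbers describe depth and are no test of the separation. In 35 members at least 1 low library held fewer than 10 counts.

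The largest separation was that of LOC116211923, on chromosome 6 of ASM765513v2 from 18447805 to 18449077. It held 57, 17 and 0 counts in EV replicates 1, 2 and 3, and 1, 0 and 14 counts in PgMyb308-like replicates 1, 2 and 3. The line 1712 libraries held 202 and 0 counts. It was thus nearly silent in every low library, with 1 count in all 4 against 290 in the high libraries. At equal depth this is a ratio of 210, with a 95% exact counting interval of 37.4 to 8335. That interval pools the libraries of a side. It leaves out the spread between them, from 14 to 202 counts on the high side, and the choice of this gene by its values. Its separation ratio of 5 compares 14 counts with 1 and has a counting interval of 0.761 to 212, so that at this depth its first place among the members cannot be told from counting error.

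Next came LOC116187317, on chromosome 8 from 11199903 to 11206428. Its normalized counts were 499, 311 and 74.6 in EV replicates 1, 2 and 3, and 3.64, 23.7 and 265 in PgMyb308-like replicates 1, 2 and 3. In line 1712 they were 279 and 48.9. The 4 high libraries lay between 265 and 499, while the low ones reached from 3.64 to 74.6, with both PgMyb308-like libraries lowest. The separation ratio was 3.55, with a counting interval of 2.87 to 4.43.

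A neighbouring pair of members lies on chromosome 5. LOC116209194, from 30364244 to 30365772, had 1616, 1609 and 533 normalized counts in EV replicates 1, 2 and 3, 107, 343 and 1667 in PgMyb308-like replicates 1, 2 and 3, and 3397 and 435 in line 1712. LOC116206852, from 30373143 to 30374656, had 65.0, 70.4 and 13.8 in EV, 3.64, 9.29 and 99.4 with PgMyb308-like, and 173 and 19.5 in line 1712. Both genes were highest in line 1712 replicate 1 and lowest in PgMyb308-like replicate 1, and their separation ratios were 3.02 and 3.32. They lie 7371 bases apart with no other gene of the count table between them. The gene on their left, LOC116209515, from 30356217 to 30358773, ranged only from 221 to 324 normalized counts, and its high and low libraries overlapped. The gene on their right, LOC116207197, averaged 2.35. Reads were counted on 3′ ends extended downstream, and whether neighbouring genes share reads was not tested.

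A second close pair, on chromosome 3, lies 12037 bases apart. LOC116200408, from 34267646 to 34269999, was the most abundant member, with 2789, 2699 and 1635 normalized counts in EV replicates 1, 2 and 3, 1400, 1478 and 2581 in PgMyb308-like replicates 1, 2 and 3, and 3043 and 1552 in line 1712. It also had the smallest ratio of means, 1.83, with values of 2778 ± 196 (SD, n = 4 libraries) in the high and 1516 ± 101 (SD, n = 4) in the low libraries. LOC116199034, from 34282036 to 34282592, had 1248, 537 and 183 in EV, 102, 85.7 and 1210 with PgMyb308-like, and 1703 and 214 in line 1712, a ratio of means of 8.04. The only gene of the count table between them, LOC116200812, lies from 34275291 to 34278522 and was no member, at 1101, 1196 and 821 in EV, 736, 947 and 817 with PgMyb308-like, and 1139 and 730 in line 1712. The members on its sides thus differ in both level and size of difference, with a non-member between them whose high and low libraries overlap.

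With 1 added to both values for the ranking, the remaining members among the 10 with the largest separation were LOC116215092 (chromosome 7, from 27771482 to 27772356), LOC116202396 (chromosome 4, from 35376691 to 35380014), LOC116199223 (chromosome 3, from 16431789 to 16433475), LOC116200315 (chromosome 1, from 47002921 to 47007558) and LOC116190610 (chromosome 1, from 4079186 to 4079924). Their separation ratios, without that addition, were 2.95, 2.85, 2.74, 2.59 and 2.42. LOC116201600, named after its values were seen, ranks at 2.51, above the last of these on the ratio alone. LOC116190610 was the most even on the high side, at 674 and 616 in EV replicates 1 and 2, 676 in PgMyb308-like replicate 3 and 638 in line 1712 replicate 1. On the low side the same gene ranged widely, from 47.3 in PgMyb308-like replicate 1 and 136 in replicate 2 to 199.6 in line 1712 replicate 2 and 254 in EV replicate 3. LOC116215092 had another order on the low side. Its lowest library was EV replicate 3, at 8.98, and PgMyb308-like replicates 1 and 2 stood at 18.2 and 23.7.

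**Figure D2:**
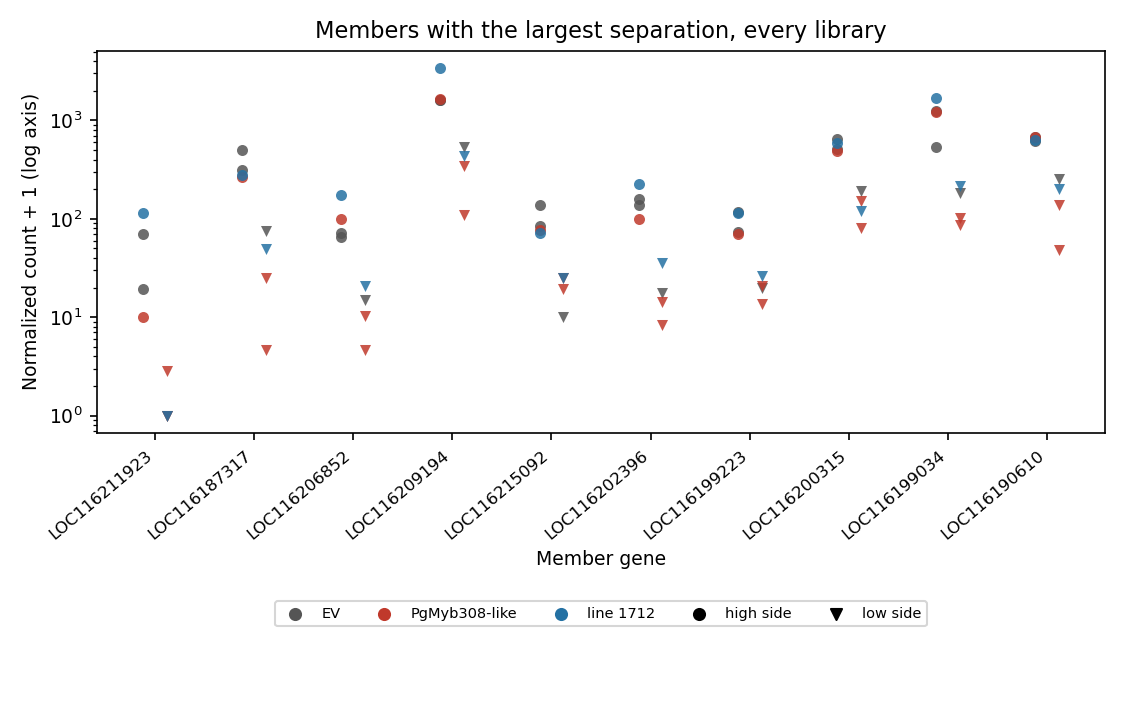
Normalized count + 1 on a log axis for the 10 members with the largest separation (ranked with 1 added to both values), with 1 point per library, coloured by construct; circles are the high libraries and triangles the low ones. In each gene all 4 circles lie above all 4 triangles, which the rule requires, and LOC116211923 is at 0 in 3 low libraries.

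The members spanned a wide range of levels. Their mean normalized count ran from 21.3 to 2147 with a median of 69.8, against a median of 72.6 over the 12628 genes. It was at least 1000 in 5 members, from 100 to 1000 in 25 and under 100 in 42. Besides LOC116200408 and LOC116209194, the most abundant were LOC116208872, LOC116202039 and LOC116195341. LOC116208872, on chromosome 5 from 24426094 to 24426779, had 2123, 2170 and 575 normalized counts in EV replicates 1, 2 and 3, 235, 546 and 2038 in PgMyb308-like replicates 1, 2 and 3, and 3466 and 903 in line 1712. LOC116202039, on chromosome 3 from 2896194 to 2897936, had 2450, 2044 and 843 in EV, 658, 488 and 1439 with PgMyb308-like, and 2409 and 918 in line 1712. In this gene PgMyb308-like was below EV on both sides, while line 1712 lay near EV on both. LOC116195341, on chromosome 2 from 40442165 to 40442741, had 2085, 1067 and 559.5 in EV, 356, 327 and 2411 with PgMyb308-like, and 2674 and 441 in line 1712.

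Together with LOC116199034, which averaged 660.2, the members LOC116202282, LOC116205571, LOC116200779 and LOC116188394 complete the 10 most abundant. LOC116188394, on chromosome 8 from 8051182 to 8052052, had an uneven difference. It stood at 549.8, 329.5 and 144 in EV, 18.2, 15.5 and 1426 with PgMyb308-like, and 1534 and 81.0 in line 1712. The ratio of high to low libraries was thus far larger within PgMyb308-like (6.32 on the log2 scale) and line 1712 (4.23) than within EV (1.61). LOC116200779, on chromosome 3 from 34581894 to 34584839, was similar in all 3, with log2 ratios of 1.08 within EV, 1.07 within PgMyb308-like and 0.79 within line 1712. LOC116202282 stood at 942 and LOC116205571 at 921 on average, with ratios of means of 4.11 and 3.91.

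Within constructs the rule fixes the direction of the difference, and its size varied. On the log2(normalized count + 1) scale the median ratio of high to low libraries was 1.45 in EV (range 0.60 to 5.47), 2.08 in PgMyb308-like (0.84 to 6.45) and 1.93 in line 1712 (0.66 to 6.85). Over the 12628 genes the same medians were 0.01, -0.04 and -0.00. The largest of the 3 ratios was that of PgMyb308-like in 38 members, that of line 1712 in 24 and that of EV in 10. Each ratio rests on 3 libraries in EV and PgMyb308-like and on 2 in line 1712, and no test of its difference between constructs was made.

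**Figure D3:**
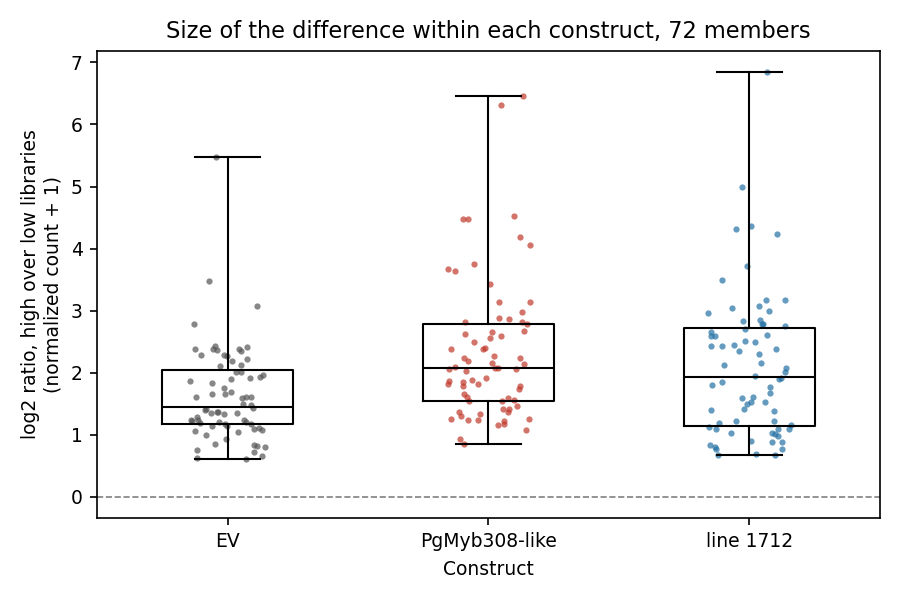
The log2 ratio of high to low libraries of the same construct (normalized count + 1) for each of the 72 members; boxes give median and quartiles, and whiskers the whole range. All values are above 0 by the rule, and the median is 1.45 in EV, 2.08 in PgMyb308-like and 1.93 in line 1712.

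The low libraries were not equally low. As a percent of the mean of the high libraries, the median member stood at 15.6% in PgMyb308-like replicate 1, 23.9% in PgMyb308-like replicate 2, 26.8% in line 1712 replicate 2 and 32.9% in EV replicate 3. Over the 12628 genes the corresponding medians were 98.6%, 98.0%, 97.6% and 96.8%. PgMyb308-like replicate 1 was alone the lowest of the low libraries in 45 of the 72 members, against 26.4% of the 12628 genes, and EV replicate 3 was the highest in 38, against 24.2%. The order of these medians is also the order of the low libraries on the first principal component, an axis that the members enter. The rule chose the members by these same values, so the order and the counts are described without a test. PgMyb308-like replicate 1 is the shallowest library and EV replicate 3 the deepest of the 4, and the part of depth in this order was not tested.

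**Figure D4:**
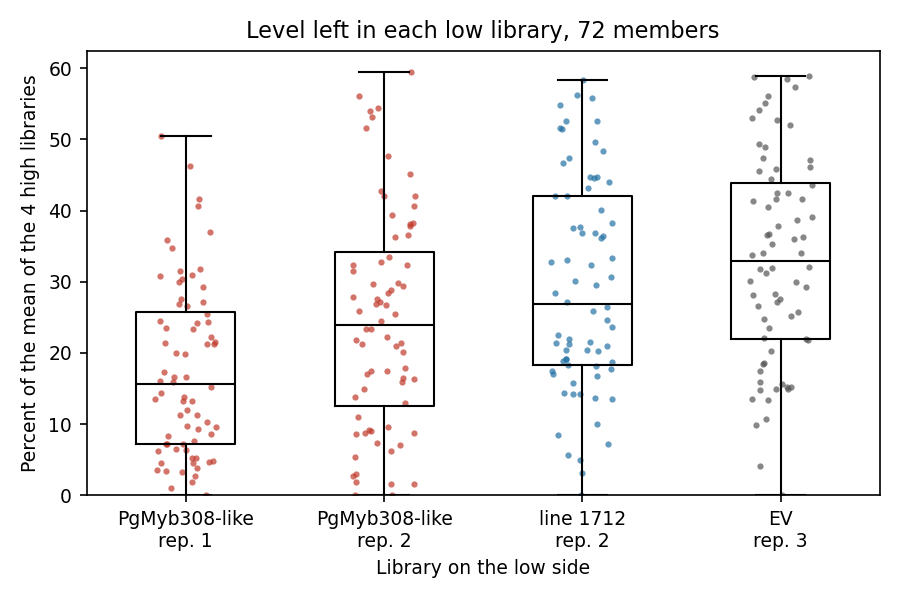
Level of each of the 72 members in the 4 low libraries, as a percent of the gene's mean over the 4 high libraries; boxes give median and quartiles, whiskers the whole range, and points are genes coloured by construct. The medians rise from 15.6% in PgMyb308-like replicate 1 to 32.9% in EV replicate 3.

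Taken as fold differences between medians, though not as percent points, the high libraries were closer to each other. The median member stood at 101% of their mean in EV replicate 1, 88.2% in EV replicate 2, 89.1% in PgMyb308-like replicate 3 and 111% in line 1712 replicate 1. Line 1712 replicate 1, the deepest library, was the highest in 32 members, against 22.3% of the 12628 genes. This count, too, comes from values that the rule used. The highest of the 4 was 1.87 times the lowest in the median member and 30.8 times in the most uneven one. LOC116201600, on chromosome 3 from 3188076 to 3189450, was that member. It had 428 normalized counts in PgMyb308-like replicate 3, 45.8 in line 1712 replicate 1, and 51.7 and 13.9 in EV replicates 1 and 2, against 3.64 to 5.53 in the low libraries.

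The study compared constructs, and for these members that comparison is bound by the rule. Every construct has libraries on both sides, so the groups overlap in every member, and with 2 of 3 PgMyb308-like lines but 1 of 3 EV lines on the low side the rule also leans the PgMyb308-like mean downward. All 72 members passed the filter on low counts. With edgeR's quasi-likelihood test over 15957 genes, 0 of the 72 were called between PgMyb308-like and EV, where 0.0376% of all genes were. A call needed a log2 fold change beyond 1 in either direction and an adjusted p under 0.05. At an unadjusted p under 0.05, 0 of the 72 passed, against 8.27% of all genes. DESeq2 called 0 members against 1.25% of its genes, and 2 members, LOC116199182 and LOC116202039, had an unadjusted p under 0.05, against 9.03%. DESeq2 gave a p for 71 members and none for LOC116201600. The median log2 fold change of the members was -0.71, against 0.01 over all genes, and 69 of 72 were negative, against 49.3% of all genes. This median moved with single libraries, to -0.35, -0.44 and -1.89 when PgMyb308-like replicates 1, 2 and 3 were left out in turn. Leaving out EV replicates 1, 2 and 3 in turn gave -0.41, -0.54 and -1.01.

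Between line 1712 and EV edgeR called 0 members (0.00627% of all genes), and 0 had an unadjusted p under 0.05 (4.26% of all genes). The median log2 fold change was -0.07, against 0.00 over all genes, with 41 members negative and 31 positive, where 49.5% of all genes were negative. Single libraries set the sign and size of this median. It was -1.43 and 0.48 when line 1712 replicates 1 and 2 were left out in turn, and 0.18, 0.06 and -0.39 when EV replicates 1, 2 and 3 were. Between PgMyb308-like and line 1712 edgeR called 0 members and 0 genes in all, and 0 members had an unadjusted p under 0.05 (3.55% of all genes). The median was -0.65, against 0.00 over all genes, and it turned to 0.52 without line 1712 replicate 1. It was -1.30 without line 1712 replicate 2, and -0.21, -0.32 and -1.79 without PgMyb308-like replicates 1, 2 and 3. DESeq2 called 0 members in both comparisons, against 0.496% of its genes for line 1712 over EV and 0.0753% for PgMyb308-like over line 1712. It gave 0 members an unadjusted p under 0.05, against 4.36% and 4.05%.

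The members with the lowest p between PgMyb308-like and EV were LOC116203311, LOC116202039 and LOC116199182, which are given as values only. LOC116203311, on chromosome 4 from 12303327 to 12306509, had 59.0, 98.1 and 18.6 normalized counts in EV replicates 1, 2 and 3, and 9.09, 19.6 and 38.3 in PgMyb308-like replicates 1, 2 and 3. Its log2 fold change was -1.32 (SE 0.65, adjusted p = 0.640 from edgeR). That of LOC116202039 was -1.05 (SE 0.52, adjusted p = 0.642 from edgeR). LOC116199182, on chromosome 3 from 5770136 to 5772265, had 40.9, 53.3 and 8.29 in EV and 1.82, 1.03 and 18.2 with PgMyb308-like, with a log2 fold change of -2.10 (SE 1.05, adjusted p = 0.644 from edgeR). In all 3 genes the low EV line lay below the high PgMyb308-like line, so that the groups overlapped.

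Line 1712 differed most from EV, by p, in LOC116197095, LOC116205943 and LOC116202282, with log2 fold changes of -1.45, 1.74 and -1.02, all at an adjusted p of 1.00 from edgeR. LOC116205943, on chromosome 4 from 3653336 to 3653962, had 249 and 11.2 normalized counts in the 2 libraries of line 1712 against 65.0, 37.3 and 19.3 in EV, and without line 1712 replicate 1 its log2 fold change was -1.83. PgMyb308-like differed most from line 1712 in LOC116211923, LOC116188633 and LOC116211027, with log2 fold changes of -3.79, -1.62 and -1.50, all at an adjusted p of 0.998 from edgeR. Without line 1712 replicate 1 the first of these became 5.06, with 0 counts in the remaining library, and the second 0.068.

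When lines were compared only within a side, the members did not shift together on the high side. PgMyb308-like replicate 3 was above the mean of EV replicates 1 and 2 in 32 members and below it in 40, with a median log2 ratio of -0.08, against -0.03 over the 12628 genes. On the low side PgMyb308-like replicates 1 and 2 were on average below EV replicate 3 in 61 members and above it in 11, with a median of -0.72, against 0.04 over the 12628 genes, of which 46.9% were below. Line 1712 was above EV in 45 members on the high side, with a median of 0.18, against -0.01 over the 12628 genes, of which 49.2% were above. On the low side it was below EV in 45 members, with a median of -0.24, against -0.00 over the 12628 genes, of which 50.2% were below. Each of these comparisons rests on 1 or 2 libraries per construct, and the EV libraries of a side enter both. The rule chose the members by these same values, so the counts of members are no test of a difference between constructs.

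**Figure D5:**
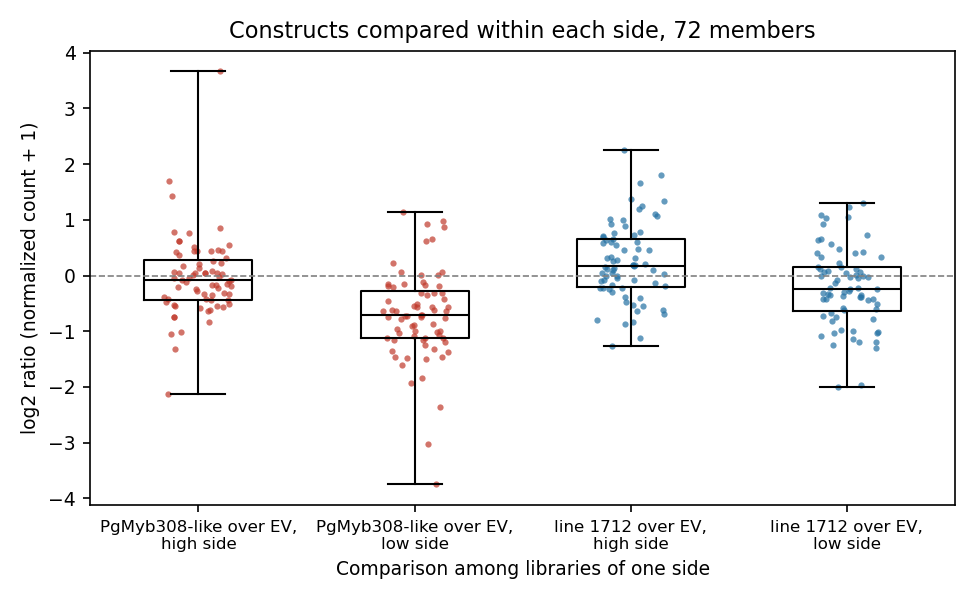
The log2 ratio to EV (normalized count + 1) of PgMyb308-like and of line 1712, taken among the high libraries alone and among the low libraries alone, for each of the 72 members; boxes give median and quartiles, and whiskers the whole range. The medians are -0.08 and -0.72 for PgMyb308-like and 0.18 and -0.24 for line 1712 on the high and low sides.

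In 2 members (2.78%) PgMyb308-like was more than 2-fold below EV on both sides, as in 1.17% of the 12628 genes. LOC116199182 had log2 ratios of -1.33 and -1.94 on the high and low sides. The other, LOC116214943, on chromosome 7 from 24409012 to 24410951 and named after its values were seen, had 585, 562 and 169.9 normalized counts in EV and 38.2, 92.9 and 277 with PgMyb308-like, giving log2 ratios of -1.04 and -1.36. Line 1712 was more than 2-fold above EV on both sides in 1 member, LOC116188633 on chromosome 8 from 26346619 to 26347935 (log2 ratios of 1.097 and 1.085), against 1.57% of the 12628 genes. It was more than 2-fold below EV on both sides in 1 member, LOC116197095 on chromosome 2 from 43154199 to 43155340 (-1.26 and -1.14), against 1.25%. With PgMyb308-like 0 members were more than 2-fold above EV on both sides, against 1.56%. At 0 to 2 members each, these counts are not read as different from those shares.

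All 72 members are annotated as protein coding, as are 98.3% of the 12628 genes. They are short genes. Their median span from start to end was 1872 bases (quartiles 1120 and 2954), against 3262 over the 12628 genes, and 58 of the 72 were below that median. Of the members, 14 (19.4%) span under 1000 bases, against 4.24% of the 12628 genes, and 64 (88.9%) have a single annotated transcript, against 66.5%. The genes of the opposite rule were alike, with a median of 1676 bases, 20.9% under 1000 bases and 89.6% with a single transcript, so that these features are not particular to the genes that were low in the low libraries. The shortest member was LOC116206764, at 357 bases, and the longest LOC116212006, at 8531, both named after their values were seen.

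The members lie on all 8 chromosomes, with 7, 11, 15, 10, 10, 6, 6 and 7 on chromosomes 1 to 8. Chromosome 3 holds 20.8% of them and 12.8% of the 12628 genes, while chromosome 1 holds 9.72% and 15.1%. Besides the pairs on chromosomes 5 and 3, only 1 further pair of members, LOC116198868 and LOC116202039 on chromosome 3, lies within 100 kb, at 90533 bases with 12 genes of the table between them. Of the genes next to a member that were no members and reached the mean of 20, 59 of 102 (57.8%) were higher in the high libraries, with a median log2 ratio of 0.07. Over the 12628 genes the share was 49.2% and the median -0.01, and over the members the median was 1.96.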

How the data were processed

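Three-prime RNA-seq (TranSeq) of whole hairy roots gave 3 EV, 3 PgMyb308-like and 2 line 1712 libraries, grouped by their labels. The authors aligned reads with STAR 2.4.2a to the pomegranate genome and counted them with htseq-count (HTSeq 0.6.1p1) on 3′ ends extended downstream, and they deposited raw counts for genes whose highest count was 6 or more. In the second deposited table the authors give a normalized signal, in which each library's counts are divided by its median-of-ratios size factor. Per the submitters' processing notes, DESeq2 1.10.1, DESeq, cutadapt and bcl2fastq 2.17.1.14 were used as well. A count on 3′ ends does not grow with gene length. Total counts were 1263321 to 3976951 per library, so that genes with few counts carry a wide counting error.

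The members, and the lists and tests, were chosen with earlier results of these data known. The rule was applied to the normalized signal. Counting intervals are 95% exact binomial intervals (scipy 1.17.1) of the ratio of 2 counts, scaled by size factors, and cover counting error only. Ratios within a construct or a side used log2(normalized count + 1). Constructs were compared on raw counts with edgeR 4.0.16 (quasi-likelihood test, TMM, minimum count 10, minimum total count 15, R 4.3.3), all 8 libraries in 1 fit with 5 residual degrees of freedom. A call needed a log2 fold change beyond 1 in either direction and p under 0.05 after Benjamini-Hochberg adjustment. P-values measure the spread between these libraries, which in line 1712 may be within 1 line. The procedure was tested on simulated data. Alternatives were DESeq2 1.42.0, other scalings and filters, other thresholds of the rule, each replicate left out and a replicate block.

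The named members are the 10 with the largest separation ratio (ranked with 1 added to both values), the 10 with the highest mean, the 3 just inside and the 3 genes just outside the threshold, the 3 with the lowest p in each of the 3 comparisons, and members next to each other. Positions and gene types are from RefSeq annotation of ASM765513v2, the assembly the authors used, in which 18820 of the 18831 identifiers were found. Product names, strand and sequences were not used here, so that pathway lists, cell type markers, protein families, promoter motifs and the level of the overexpressed gene are not analysed.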

Additional observations from a re-analysis of the deposited data

How the results depend on the processing

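The rule took 72 genes. With TMM-adjusted totals it took 71 (70 of them shared) and with plain library totals 58 (56 shared). With a minimum mean of 10 or 50 it took 89 or 49. A ratio of 1.3 gave 133 genes, a ratio of 2 gave 26, and no minimum mean gave 146. Leaving out 1 library drops a condition of the rule but also changes the mean that a gene must reach. The result was 76 genes without line 1712 replicate 1 (65 of the 72 kept) to 250 without EV replicate 3 (72 kept). It was 148 without EV replicate 2 (71 kept), 141 without PgMyb308-like replicate 3 (69 kept) and 123 without line 1712 replicate 2 (72 kept). Of 27 named members, 25 kept a separation ratio of at least 1.5 with TMM-adjusted totals and 21 with plain totals. With plain totals the lowest was LOC116195316 at 1.36, and LOC116200408, the most abundant member, stood at 1.45.

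No member was called in any construct comparison under the 14 alternatives for PgMyb308-like against EV and the 13 for each comparison with line 1712. Where both constructs keep libraries on both sides, the rule makes the groups overlap in every member, so this sameness is no separate support. Leaving out PgMyb308-like replicate 3, EV replicate 3 or a library of line 1712 puts a construct on a single side, where overlap is not forced. The sameness there still comes from the values that chose the members. With a replicate block, too, 0 members were called in each comparison. Same-numbered libraries did not deviate together (correlations of -0.27 to 0.20), so that no pairing by number was seen. Deviations were taken from the group mean, which makes the libraries of line 1712 mirror images. These correlations are thus not independent, and a shared batch was not tested. The lowest adjusted p of a member ran from 0.0855 (without PgMyb308-like replicate 3) to 0.980 for PgMyb308-like against EV in edgeR and DESeq2, from 0.974 to 1 for line 1712 against EV, and from 0.257 to 1 for PgMyb308-like against line 1712.

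Without line 1712 replicate 1, the log2 fold change of LOC116205943 against EV turned from 1.74 to -1.83, and those of LOC116211923 and LOC116188633 between PgMyb308-like and line 1712 from -3.79 to 5.06 and from -1.62 to 0.068. Over all replicates left out, the first ranged from -1.83 to 2.65, the second from -6.22 to 5.06 and the third from -2.36 to 0.068. The library left in line 1712 was then assumed to vary like the others. Depth limits 35 members with fewer than 10 counts in a low library.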
